A study of Mus musculus with 6 samples.

Results

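The microRNA family of miR-103 and miR-107 was followed in small-RNA libraries of a cultured mouse epicardial cell line, a model of the outer layer of the heart. Its members were the rows of the deposited count table named for miR-103 or miR-107, on either arm of the hairpin, which gave 4 of 1028 rows: mmu-miR-103-3p, mmu-miR-107-3p, mmu-miR-103-2-5p and mmu-miR-107-5p, written below without the species prefix. The rule uses names and no measured values, though it was set with earlier results of these data known. Only miR-103-3p and miR-107-3p, 2 of the 4, passed the filter on low counts, which left 460 microRNAs to test.

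Per the labels, 3 libraries came from cells given an empty-vector lentivirus (EV) and 3 from cells given a lentivirus carrying an Hdac3 guide RNA for CRISPR/Cas9 knockout (KO). Hdac3 is a histone deacetylase that works in repressor complexes, and by its title the series links Hdac3 of the epicardium to heart muscle growth through microRNAs. All 6 samples are 1 cell type grown in serum-containing medium, and neither the origin of the replicates (separate cultures or not) nor that of the KO cells (1 clone or a mixed population) is in the labels. The p-values below therefore measure the spread between these libraries, which may be technical. In such bulk RNA, fewer cells carrying a microRNA and less of it per cell cannot be told apart, and the Hdac3 transcript is not measured by small-RNA libraries.

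miR-103 and miR-107 are closely related microRNAs that lie in introns of the pantothenate kinase genes, whose enzymes start the synthesis of coenzyme A. They are known for lowering insulin sensitivity in liver and fat and for repressing Dicer1, the nuclease that cuts microRNA precursors. They are often placed with miR-15 and miR-16 in a wider group because these microRNAs share a short stretch near the 5′ end, where target transcripts are recognised. miR-103 is also a common reference for microRNA PCR, since it is expressed in most tissues.

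The mature sequences, from RefSeq on GRCm38.p6, are shown because a single base separates both tested members. Capitals mark the seed, bases 2 to 8.
miR-103-3p: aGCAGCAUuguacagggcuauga
miR-107-3p: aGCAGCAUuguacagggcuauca
Counted from the 5′ end, the only difference of miR-107-3p from miR-103-3p is G22C, in 23 bases. A read that ends at base 21 or before it fits both, and the sources used here do not give how the authors counted such reads. No other mature name in that RefSeq table, 2 of 1679 in all, has the seed GCAGCAU.

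The hairpins show why the 5p arms can tell the copies apart when the 3p arms cannot. Capitals mark the 3p arm, the abundant product.
Mir103-1: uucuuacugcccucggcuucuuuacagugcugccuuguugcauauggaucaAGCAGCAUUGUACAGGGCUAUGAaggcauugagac
Mir103-2: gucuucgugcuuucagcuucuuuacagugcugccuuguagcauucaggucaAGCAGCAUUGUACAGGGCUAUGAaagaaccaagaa
Mir107: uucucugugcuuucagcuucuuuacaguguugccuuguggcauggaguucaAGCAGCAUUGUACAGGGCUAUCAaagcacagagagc
Mir103-1 and Mir103-2 carry the same 3p arm, so counts of miR-103-3p add up both loci. Over the whole hairpins, 69 of 86 aligned bases were identical between Mir103-1 and Mir103-2, 70 of 87 between Mir103-1 and Mir107, and 73 of 87 between Mir103-2 and Mir107. Relative to miR-103-2-5p, miR-103-1-5p carries A1G and miR-107-5p carries C16U, positions again from the 5′ end. miR-103-1-5p was not analysed here.

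Each hairpin sits in intron 5 of a different pantothenate kinase gene, on the host's strand and between coding exons (GRCm38, GENCODE M21). Mir103-1 lies at chr11:35782396-35782481 in Pank3, 688 bases after exon 5, in an intron of 1740 bases. Mir103-2 lies at chr2:131288052-131288137 in Pank2, 454 bases after exon 5, in an intron of 5801 bases. Mir107 lies at chr19:34820687-34820773 on the minus strand in Pank1, 326 bases after exon 5, in an intron of 7282 bases. All annotated protein-coding isoforms that span a hairpin, 1 of Pank3, 2 of Pank2 and 3 of Pank1, place it in an intron. Host transcripts are not measured in these libraries.

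**Figure D1:**
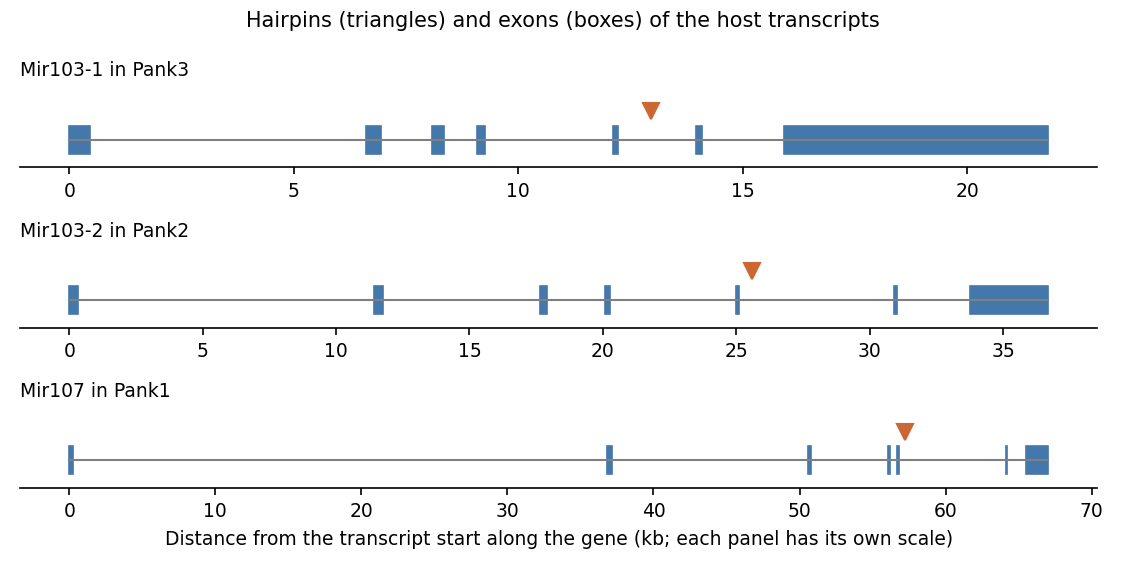
Exons (boxes) of the 3 host transcripts Pank3, Pank2 and Pank1, each with 7 exons, and the hairpin inside (triangle), by distance from the transcript start in kb, with a scale of its own per panel. In each gene the triangle sits in intron 5, close after exon 5.

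The libraries held 11824881 to 13412774 counts. CPM below are counts per 1000000, with each library total first multiplied by a TMM factor (0.919 to 1.23), and 1 read equals 0.0637 to 0.0892 CPM. Of the mesenchymal list (miR-21a-5p, miR-143-3p, miR-145a-5p, both miR-199a arms, miR-214-3p and miR-22-3p), 7 of 7 were detected in every library, while the markers of epicardium itself are mRNAs that were not measured. Detection was not particular to that list. Of the listed rows present, 2 of 2 endothelial, 4 of 5 neural and 3 of 7 blood-cell microRNAs were also detected in every library. So were 2 of 4 muscle and 2 of 4 liver and pancreas microRNAs. EV 3 and KO 2 stood apart by miR-451a, a red-cell microRNA, at 54.7 and 62.7 CPM against 0.243 to 2.45 CPM in the other 4, and by the neural miR-9-5p, at 51.4 and 57.1 CPM against 11.3 to 32.6 CPM. Summed over the 7 blood-cell microRNAs of the list, CPM ran from 8.92 to 68.4 in EV and from 6.16 to 78.3 in KO, with miR-144-3p at 1 read at most. In KO against EV, 23 of the 460 tested microRNAs rose (5.00%) and 12 fell (2.61%), which makes 35 calls (7.61%), by edgeR's quasi-likelihood test with Benjamini-Hochberg adjusted p under 0.05. Scaling by library size alone gave 1 higher and 4 lower and put the median log2 change over all microRNAs at -0.16 in place of -0.01. Library sizes without miR-21a-5p gave 18 higher and 25 lower, with a median of -0.11. Leaving out EV 1, EV 2 or EV 3 gave 23, 16 or 59 calls, and leaving out KO 1, KO 2 or KO 3 gave 16, 15 or 19.

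miR-103-3p, the main product of both Mir103 loci, was at the same level in KO as in EV to within the error of the libraries. It was counted 7431, 5237 and 6104 times in EV 1 to 3, or 473, 427 and 545 CPM. The KO libraries held 5938, 5831 and 5979 reads, or 481, 465 and 489.6 CPM. All KO values lay between EV 2, the lowest EV library, and EV 3, the highest. The means were 482 ± 59.1 CPM in EV and 479 ± 12.5 CPM in KO (SD, n = 3 each), a log2 change of -0.01 (SE 0.09, 95% interval -0.21 to 0.19, edgeR adjusted p = 0.970). That interval holds changes of either sign. The sign itself was not fixed: without EV 3 the log2 change was 0.087 (SE 0.07, edgeR adjusted p = 0.476), without KO 2 it was 0.016, and without both 0.11. With library size alone it was -0.16 (SE 0.12), the same as the shift of all microRNAs. EV 3, highest for miR-103-3p, was also 1 of the 2 libraries with high miR-451a, while KO 2, the other, was the lowest KO library for miR-103-3p. The part of this in the result was not tested.

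miR-107-3p, the product of the Pank1 intron, was lower in KO in all 3 libraries, but did not pass the test. Its counts were 277, 204 and 192 in EV 1 to 3, or 17.6, 16.7 and 17.1 CPM. In KO 1 to 3 they were 182, 180 and 169, or 14.8, 14.4 and 13.8 CPM. Every KO value lay below every EV value, a pattern seen for 13.9% of all tested microRNAs in that direction and for 29.1% in either. The means were 17.1 ± 0.497 CPM in EV and 14.3 ± 0.460 CPM in KO (SD, n = 3 each), and the log2 change was -0.26 (SE 0.13, 95% interval -0.55 to 0.03), a 1.20-fold difference. The unadjusted p was 0.0702 and the adjusted p 0.254 by edgeR, rank 124 of 460 by p. Counts this small carry a counting error of about 6.74% per EV library and 7.52% per KO library. The observed spread, 2.90% in EV and 3.21% in KO, was below that, so the 3 values of a group lay closer together than counting alone would usually place them. Across the 17 other settings the log2 change stayed below 0, between -0.42 and -0.23, and none called it (adjusted p 0.107 to 0.471). At -0.42 (SE 0.18) with library size alone, it moved with the shift of all microRNAs.

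**Figure D2:**
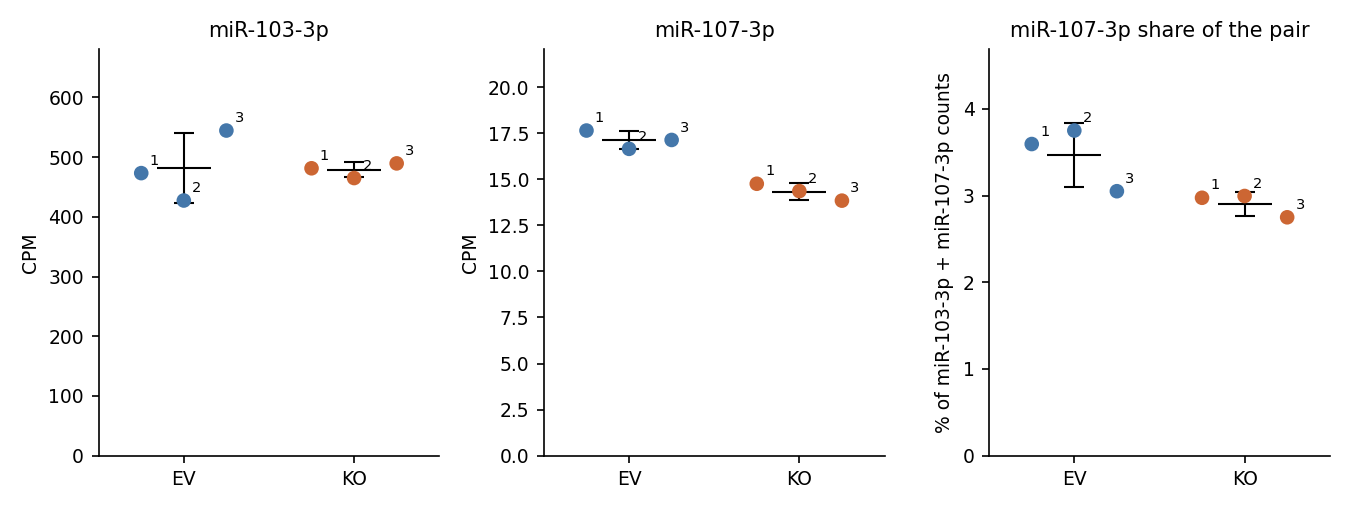
CPM of miR-103-3p and of miR-107-3p, and miR-107-3p as a percentage of their joint counts, in each library (points, numbered by replicate), with mean and SD (bars, n = 3 per group) and axes from 0. The groups overlap for miR-103-3p, between 427 and 545 CPM, while the KO points of miR-107-3p, 13.8 to 14.8 CPM, lie below the EV points, 16.7 to 17.6 CPM.

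Neither of the 2 tested members was called, beside 35 of all 460 tested microRNAs (7.61%). At that share 2 members would usually hold no call, so this is not a result about the family. The authors' deposited table of 78 microRNAs, where the count table has 1028 rows, lists none of the 4 rows. That table holds only microRNAs with an adjusted p under 0.05 by the authors' own test (largest 0.0488). Summing the rows of miR-103-3p and miR-107-3p, so that a read counted in only 1 of the rows adds the same to the total whichever row it went to, gave 499 ± 59.3 CPM in EV and 493 ± 12.3 CPM in KO (SD, n = 3 each). The log2 change of the sum was -0.02 (SE 0.09, 95% interval -0.22 to 0.18, edgeR adjusted p = 0.939), and it was above 0 without EV 3 (0.073), without KO 2 (0.0077) and without both (0.10). The family made up 0.0602%, 0.0460% and 0.0516% of all counts in EV 1 to 3, and 0.0456%, 0.0473% and 0.0476% in KO 1 to 3. The groups overlapped in that share (exact two-sided permutation p = 0.30, n = 3 each, where 0.10 is the smallest p that this design allows). A single microRNA, miR-21a-5p, held from 63.0% (EV 1) to 70.1% (EV 3) of a library's counts. With miR-21a-5p left out of the total, the family share was highest in EV 3 (0.173%), with EV 1 at 0.163%, and the groups again overlapped. In rank of counts among the 1028 rows, miR-103-3p stood between 50 and 54 in every library. miR-107-3p ranked 207 to 210 in EV and 220 to 224 in KO.

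The balance within the pair needs no scaling between libraries. miR-107-3p made up 3.59%, 3.75% and 3.05% of the joint counts in EV 1 to 3, and 2.97%, 2.99% and 2.75% in KO 1 to 3. All KO shares lay below the EV shares, with EV 3 close to the KO libraries: its exact 95% binomial interval, 2.64% to 3.50%, holds every KO share. How many other microRNAs had a ratio to miR-103-3p that parted the groups was not counted. In CPM, all KO values lay below all EV values for 13.9% of tested microRNAs. Exact binomial intervals cover counting error only, since PCR copies cannot be told from separate molecules. The mean log2 ratio of miR-107-3p to miR-103-3p was -4.81 in EV and -5.06 in KO, a difference of -0.26 for KO minus EV (exact two-sided permutation p = 0.10, the smallest that 3 against 3 libraries allow). In a limma fit of the ratio of every tested microRNA to miR-103-3p, the same difference was -0.26 (SE 0.16, 95% interval -0.60 to 0.09, limma adjusted p = 0.430). The interval thus includes no difference between both members and also a fall of miR-107-3p relative to miR-103-3p.

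Reads of the 5p arms, the strands usually discarded, were nearly absent. miR-103-2-5p had 3 reads in KO 2 and 0 in the other 5 libraries, and miR-107-5p had 1 read in EV 3 and 0 elsewhere. A count of 0 allows up to 3 reads per library, or 0.191 to 0.268 CPM, so neither group rises above that limit and no fold is given. In KO 2, the 3 reads (95% Poisson interval 0.619 to 8.77) were 0.0514% of miR-103-2-5p and miR-103-3p reads together. Where no read was seen, the limit was 0.0404% to 0.0573% of these reads, within the exact 95% binomial interval of the KO 2 share, 0.0106% to 0.150%. Since only the 5p arms separate Mir103-1 from Mir103-2, these libraries do not divide miR-103-3p between the Pank3 and Pank2 loci. Among 144 hairpins with both arms listed and at least 1000 reads, the weaker arm held a median of 1.86% of the reads. For miR-107 it held 0.0830%, the 19th smallest share. That share rests on 1 read (95% Poisson interval 0.0253 to 5.57 reads), so its rank is not precise. All 4 rows together drew 96.8% of their reads from miR-103-3p.

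Examples of the other microRNAs of the miR-15 and miR-107 group are shown with AGCAGC in capitals, the stretch they share with miR-103-3p and miR-107-3p, because some of them were called in KO.
miR-103-3p: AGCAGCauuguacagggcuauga
miR-107-3p: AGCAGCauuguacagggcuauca
miR-16-5p: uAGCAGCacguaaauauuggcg
miR-322-5p: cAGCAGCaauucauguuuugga
miR-503-5p: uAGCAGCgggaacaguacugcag
AGCAGC starts at base 1 in miR-103-3p and miR-107-3p and at base 2 in the others, so the seeds are offset by a base and are not identical. Searched as written on the mature strand, within bases 1 to 8, AGCAGC was found in 9 of the 849 rows that matched a RefSeq mature sequence by name (1.06%), and all 9 were tested. They were both family members and miR-15a-5p, miR-15b-5p, miR-16-5p, miR-195a-5p, miR-322-5p, miR-497a-5p and miR-503-5p. A match is a description of the letters and not of what a microRNA binds.

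Of the 7 tested group members outside the family, 2 rose in KO, 0 fell and 5 were not called, where 7.61% of all tested microRNAs were called. miR-322-5p and miR-503-5p, neighbours on the X chromosome that were already known as candidates in these data, rose by 0.92 (SE 0.07) and 0.60 (SE 0.07) on the log2 scale, with edgeR adjusted p = 1.06e-04 and 0.00186. Relative to miR-103-3p within each library they were higher in KO by 0.92 (SE 0.11, limma adjusted p = 6.87e-04) and 0.60 (SE 0.12, limma adjusted p = 0.0131), so these changes differed from that of miR-103-3p. miR-16-5p, another common PCR reference, had 275, 295 and 305 CPM in EV 1 to 3 and 356, 323 and 376 CPM in KO 1 to 3. Its groups did not overlap, a pattern seen for 29.1% of all tested microRNAs in either direction. Its log2 change of 0.27 (SE 0.08) was not called (edgeR adjusted p = 0.0731), although the authors' deposited table lists it at 0.25. It was called with DESeq2 (DESeq2 adjusted p = 0.0293), and by edgeR with the filter of at least 10 CPM (adjusted p = 0.0435), without EV 3 (adjusted p = 0.0489) and without EV 3 and KO 2 together (adjusted p = 0.0195). miR-15a-5p, miR-15b-5p, miR-195a-5p and miR-497a-5p stood at 0.31 (SE 0.19), 0.06 (SE 0.12), 0.92 (SE 0.38) and -0.03 (SE 0.37), the last with no fixed sign across settings. Of these, miR-15a-5p, miR-195a-5p and miR-497a-5p were low, with means of 7.71, 1.93 and 1.62 CPM over the 6 libraries. The median of the 7 was 0.31, which is the value of miR-15a-5p, beside -0.01 for all tested microRNAs. Without EV 3, 4 were called, miR-16-5p and miR-195a-5p in addition. Calls over all microRNAs also rose there, from 35 of 460 to 59 of 481. Under scaling by library size alone the single call was miR-322-5p, with miR-503-5p at 0.44 (SE 0.14, edgeR adjusted p = 0.144), and miR-15b-5p was at -0.092. The remaining listed names, miR-497b, whose sequence lacks AGCAGC, and miR-195b, were not tested.

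**Figure D3:**
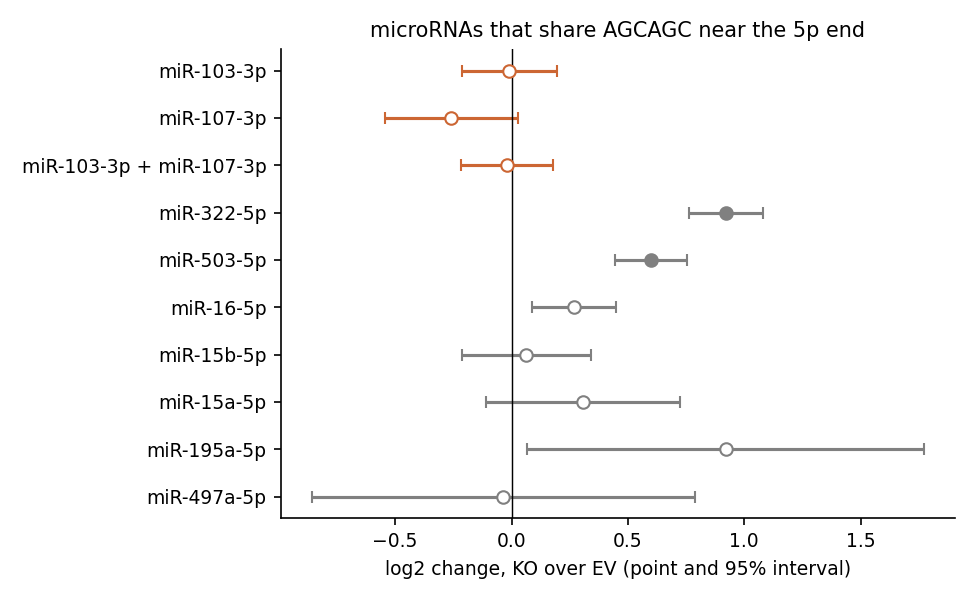
log2 change of KO over EV (points) with 95% intervals from edgeR for miR-103-3p, miR-107-3p and their sum (orange) and the other AGCAGC microRNAs (grey). Filled points passed the adjusted threshold: only miR-322-5p and miR-503-5p did, at 0.92 and 0.60, while miR-103-3p lies at -0.01 and miR-107-3p at -0.26.

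In each KO library the family held a smaller part of all AGCAGC-bearing microRNAs than in each EV library. miR-103-3p and miR-107-3p made up 29.0%, 26.6% and 30.5% of the summed CPM of the 9 microRNAs in EV 1 to 3. In KO 1 to 3 they made up 20.1%, 20.4% and 20.1%. The sum of all 9 was 1733 ± 94.1 CPM in EV and 2444 ± 82.2 CPM in KO (SD, n = 3 each), and that of miR-322-5p and miR-503-5p 880 ± 26.6 and 1532 ± 45.8 CPM. Leaving miR-322-5p and miR-503-5p out of the sum, the family held 58.4% ± 2.78 in EV and 54.1% ± 0.834 in KO (SD, n = 3 each). These shares were chosen for description after the values were known and carry no test. Adaptor ligation favours some microRNAs over others, so a share set across microRNAs is of reads, not of molecules.

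**Figure D4:**
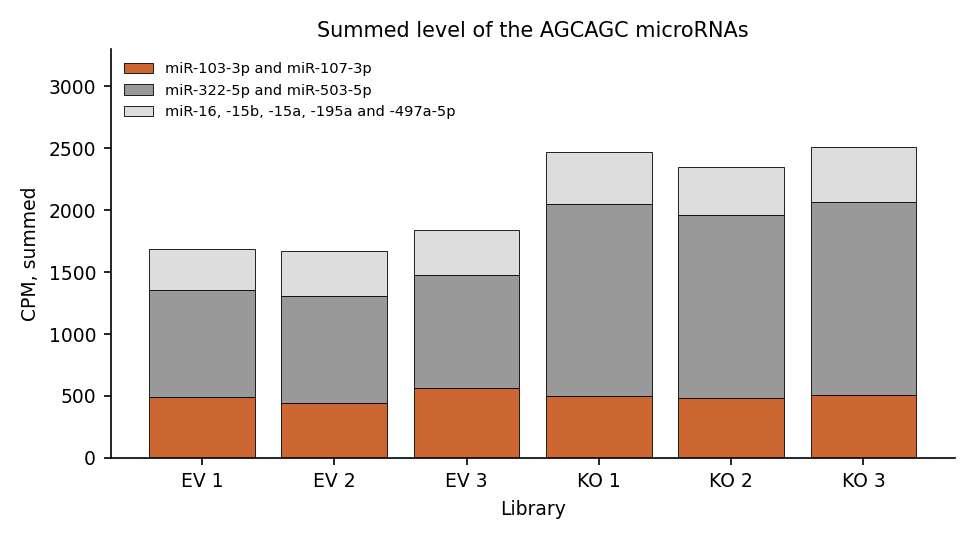
Summed CPM of the 9 microRNAs with AGCAGC near the 5′ end in each library (bars from 0), divided into miR-103-3p with miR-107-3p, miR-322-5p with miR-503-5p, and the other 5. The family's segment stays between 444 and 562 CPM, while the middle segment is 864 to 911 CPM in EV and 1480 to 1566 CPM in KO.

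As a PCR reference is chosen for a level that varies little, the spread of miR-103-3p over all 6 libraries was set beside that of other microRNAs. The SD of its log2 CPM was 0.11, and 20.5% of the 249 tested microRNAs with a mean of at least 10 CPM had a smaller one. Many of the 249 had lower levels than miR-103-3p, where counting error widens the SD. The share among microRNAs of a like level was not counted, so 20.5% does not set miR-103-3p against its peers. For miR-107-3p the SD was 0.15, with 39.0% of microRNAs below it. Without EV 3, the library that was highest for miR-103-3p, 8.37% had a smaller SD than miR-103-3p, and without EV 1 it was 34.1%. Among the 13 reference microRNAs listed, all of them tested, miR-152-3p had the smallest SD (0.063) and miR-23a-3p the largest (0.27). miR-103-3p was close to miR-191-5p (0.11) and miR-92a-3p (0.11).

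In the reference list 1 of 13 members was called, miR-23a-3p, which was higher in KO at 0.49 (SE 0.07, edgeR adjusted p = 0.00346), against 7.61% of all tested microRNAs. The median of the list was 0.05, beside -0.01 for all tested microRNAs. Its most abundant members, miR-26a-5p, miR-24-3p and let-7a-5p, stood at 0.24 (SE 0.09), 0.23 (SE 0.08) and 0.05 (SE 0.08), and none was called by edgeR. The authors' deposited table lists miR-26a-5p at 0.22 and miR-24-3p at 0.21. DESeq2 called 3 of the 13, and 48 of 460 overall (10.4%). With library size alone 0 were called, and the median was -0.10 beside -0.16 for all microRNAs. With miR-103-3p itself as the reference, in the limma fit of ratios, 11 of 459 microRNAs differed between KO and EV (2.40%), 8 higher (1.74%) and 3 lower (0.654%). All 11 were among the 35 called on TMM-scaled counts. Every ratio also carries the spread of miR-103-3p itself, and the 2 fits are of different kinds, so 11 and 35 are not like counts. A microRNA among the 35 that was not called by its ratio is not thereby shown to be unchanged.

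**Figure D5:**
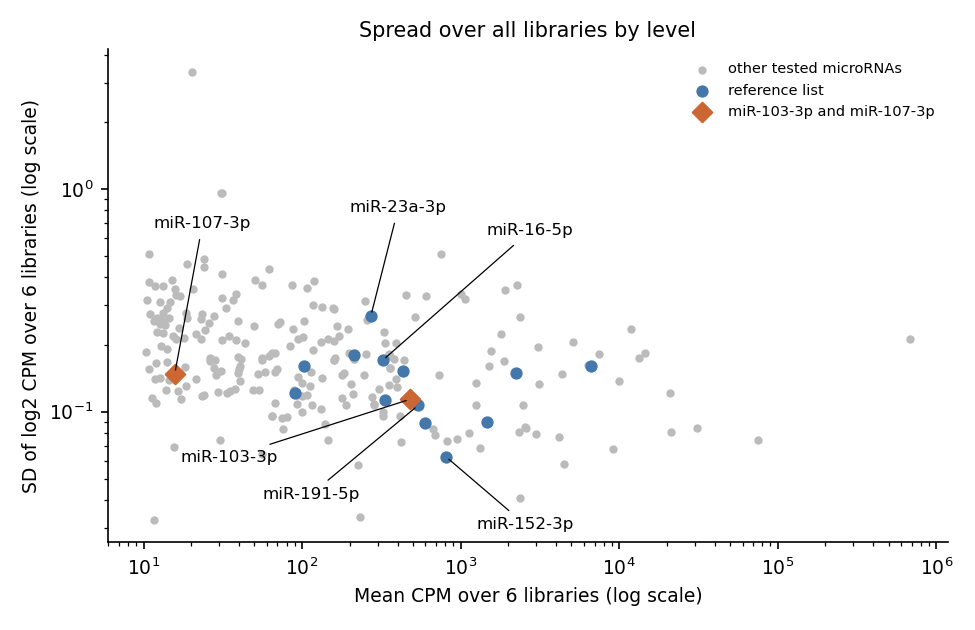
SD of log2 CPM over the 6 libraries against mean CPM (both axes logarithmic) for 249 tested microRNAs, with the reference list in blue and miR-103-3p and miR-107-3p as orange diamonds. miR-103-3p, at 480 CPM and an SD of 0.11, lies near miR-191-5p and below miR-16-5p and miR-23a-3p.

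The profiles closest to that of miR-103-3p over the 6 libraries, by root mean square difference of centred log2 CPM among 248 other microRNAs, were those of miR-191-5p (0.047), miR-125a-5p (0.059), miR-93-5p (0.073), miR-185-5p (0.075) and miR-199a-5p (0.080). None of these was called, with log2 changes between -0.16 and 0.05. miR-191-5p had 546, 498 and 616 CPM in EV 1 to 3 and 511, 534 and 539 CPM in KO 1 to 3, and was lowest in EV 2 and highest in EV 3, as miR-103-3p was. Closest to miR-107-3p were miR-369-5p (0.059), miR-300-3p (0.063), miR-382-3p (0.065), miR-382-5p (0.070) and miR-299a-3p (0.076), which all come from the imprinted Dlk1-Dio3 region. Their log2 changes lay between -0.32 and -0.16, and none was called by edgeR (adjusted p 0.0657 to 0.209). Many other microRNAs of the Dlk1-Dio3 region were among the 248 compared, and the share of that region was not counted. These 6 libraries share scaling factors, so likeness of profile is a description only.

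miR-103 and miR-107 are known for their part in insulin and lipid metabolism, and other microRNAs with such roles were listed beside them. Of 20 listed, 15 were tested, 1 rose, 1 fell and 13 were not called by edgeR, beside 7.61% of all tested microRNAs called. The median log2 change of the 15 was 0.11, and that of all tested microRNAs -0.01. miR-34a-5p, which lowers Sirt1 in liver, rose by 0.79 (SE 0.10, adjusted p = 0.00220), and miR-370-3p, an imprinted microRNA, fell by 0.61 (SE 0.14, adjusted p = 0.0290). The most abundant members, miR-143-3p, miR-148a-3p and miR-27b-3p, stood at 0.11 (SE 0.10), 0.08 (SE 0.10) and 0.17 (SE 0.09). The authors' deposited table also lists miR-29a-3p, at 0.25. Here miR-29a-3p stood at 0.27 (SE 0.08) and was not called (edgeR adjusted p = 0.0672). DESeq2 called 3 of the 15, and 48 of 460 overall (10.4%). miR-370-3p was not called without EV 1, EV 2, KO 1 or KO 2, which left 1 called member. With library size alone 0 were called, and the median was -0.04 beside -0.16 for all microRNAs.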

How the data were processed

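Read counts per mature microRNA, whole numbers made and deposited by the authors, were taken for 3 EV and 3 KO libraries. The TPM values deposited beside them are the counts per 1000000 of each library total, to within 3.49e-10, and were left untested. In a second table the authors deposited log2 fold changes with p-values, raw and adjusted, and a normalized signal per group that has no spread. Bowtie, DESeq 1.8.3 and mm10 are named in the submitters' processing notes; the sources used here do not give how reads that match several microRNAs were handled. RNA was extracted with Trizol and made into adaptor-ligated, gel-selected libraries without molecular identifiers, per the labels' protocols.

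Counts were tested in R 4.3.3 with edgeR 4.0.16 (TMM, filterByExpr with minimum count 10 and total 15, quasi-likelihood F test, two-sided, Benjamini-Hochberg over all 460 tested rows at 0.05). Ratios to miR-103-3p (0.5 added to each count) were fitted with limma 3.58.1 with a trended prior. Intervals are 95%. Both fits were tested on simulated data. Alternatives were DESeq2 1.42.0, limma-voom, scaling by library size alone or by median-of-ratios factors, other filters, leaving out the 5 most abundant or the predicted microRNAs, a replicate block and each library left out in turn. Chosen after seeing the data were library sizes without miR-21a-5p and leaving out EV 3 with KO 2. Sequences came from RefSeq and loci from GENCODE M21, both on GRCm38.

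The members, lists and tests were chosen with earlier results of these data known. The named microRNAs were every family row, every tested member of the miR-15 and miR-107 group, the called and the 3 most abundant members of the metabolism and reference lists, and the 5 profiles closest to each tested member. miR-29a-3p of the metabolism list was added after the values were known, because the authors list it. The ratio of miR-103-2-5p to miR-103-3p had been planned and was not fitted, as 5 of 6 libraries held 0 reads of the 5p arm.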

Additional observations from a re-analysis of the deposited data

How the results depend on the processing

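Neither miR-103-3p, miR-107-3p nor their sum was called in any of the 17 other settings. miR-103-3p had a log2 change above 0 with the filter of at least 10 CPM in 3 libraries (0.0029) and without EV 3 and KO 2 together (0.11), and lay between -0.11 and 0.087 with 1 library left out. The sum stood at 0.10 without EV 3 and KO 2 together and between -0.12 and 0.073 with 1 library left out. Correlations of deviations from the group mean were 0.231, -0.166 and -0.266 for replicate numbers 1, 2 and 3. For unlike numbers they ran from -0.432 to 0.462. Deviations from a mean of 3 libraries depend on each other, so these values cannot tell whether libraries were paired. With the replicate block miR-107-3p stood at -0.26 (edgeR adjusted p = 0.442) and 34 microRNAs were called. All called microRNAs numbered 5 of 460 tested with library size alone and 56 of 1028 without the filter. Without EV 3 and KO 2 together they numbered 88 of 470. With 1 library left out they ran from 15 of 475 (without KO 2) to 59 of 481 (without EV 3). Called members of the miR-15 and miR-107 group, metabolism and reference lists were 1, 0 and 0 with library size alone, and ranged from 2 to 4, 1 to 3 and 1 to 2 with 1 library left out. Without EV 3 and KO 2 together 5 of 16 tested metabolism and 2 of 13 reference members were called. DESeq2 called 3 reference members, beside 48 of 460 microRNAs in all. The 10 CPM filter gave 2 reference members, beside 41 of 253 in all. miR-15b-5p was below 0 with library size alone (-0.092) and library sizes without miR-21a-5p (-0.034), and ran from -0.019 to 0.15 with 1 library left out. miR-497a-5p was above 0 with limma-voom (0.090) and the replicate block (0.010), and ran from -0.29 to 0.42 with 1 library left out. The share of microRNAs steadier than miR-103-3p was 11.5% with no minimum CPM and 8.37% to 34.1% with 1 library left out. The log2 ratio of miR-107-3p to miR-103-3p ran from -0.37 to -0.20 over its 11 alternatives. The cause of these differences was not tested. Depth limits the 5p arms, with at most 3 reads in a library, and the precision of miR-107-3p.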
